A study of Homo sapiens with 18 samples.

Results

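The regions described here are gene ends that run into a neighbouring gene on the opposite DNA strand. With GENCODE release 44, a transcript of the readthrough table was taken as a member when an opposite-strand protein-coding gene overlapped the window 100 to 1000 nt beyond its last exon and no protein-coding gene of its own strand did. Transcripts with symbols of ribosomal, mitochondrial ribosomal, histone, zinc finger, solute carrier and mitochondrially encoded genes (11 symbol prefixes) were left out. Of the 13051 transcripts in the table, 12704 were matched to the annotation and 2518 were members, which is 19.3% of the table. The window alone had found 2667, and 149 of these fell to the symbol prefixes. Transcripts with a protein-coding neighbour on both strands were not members.

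The reads are long PacBio reads of nascent, chromatin-associated RNA from K562, an erythroleukemia line from a chronic myeloid leukemia in blast crisis that carries the Bcr-Abl1 kinase. A readthrough read is a read whose 3′ end lies more than 100 nt past the last exon of the transcript in the table. That exon is not always where the gene ends. In GENCODE 44 the gene itself ran over 100 nt further for 152 members (6.04%, with 9.17% of the member reads) and for 6.27% of all matched transcripts, so reads counted at these ends can lie inside the gene. Among them are NAXE, whose gene runs 15208 nt further, INTS4 (4302 nt), MKRN2 (2495 nt), PKLR (546 nt) and MCM7 (495 nt). There were 18 libraries, 3 in each of 6 conditions. CTRL libraries were untreated cells, KCl 45min libraries came from cells in 110 mM KCl for 45 min, and JTE 1h libraries from cells given 5 µM JTE-607, an inhibitor of the cleavage nuclease CPSF73, for 1 h. CTRLim libraries were the untreated cells prepared alongside the imatinib libraries, and IM 1h and IM 18h libraries came from cells given 1 µM imatinib, an inhibitor of Bcr-Abl1, for 1 h or 18 h. CTRL, KCl and JTE libraries had 40.5 to 44.1% of raw reads mapped and CTRLim and imatinib libraries 84.3 to 91.6%, so each treatment was compared within its own set. All libraries are of 1 cell line. The KCl and JTE comparisons share the CTRL libraries, and the 2 imatinib comparisons with CTRLim share those libraries, so they are not independent of each other.

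Library depth ran from 229855 reads in CTRLim replicate 1 to 1349556 reads in IM 18h replicate 3, and readthrough reads made up 2.15 to 5.40% of them. Levels below are readthrough reads per 1000000 library reads, written RPM, and errors are SD over 3 libraries. The JTE 1h libraries did not resemble each other: readthrough was 3.06% of reads in replicate 1, 5.40% in replicate 2 and 5.05% in replicate 3. The summed level, the member share and the number of members called are therefore given with and without replicate 1 for JTE 1h, while other JTE results rest on all 3 libraries. As a check of the line, the erythroid genes HBG1, HBE1, GATA1 and KLF1 had 4159, 2768, 38 and 115 readthrough reads, while the leukocyte gene PTPRC had 64. HBG2 and CD3E were not among the transcripts matched.

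At the end of a protein-coding gene, the polyadenylation signal AATAAA or a variant of it is bound by the cleavage and polyadenylation complex, and CPSF73 cuts the RNA a short way downstream. Polymerase continues past the cut site until it is released, and when cleavage fails the uncut transcript extends into the intergenic DNA. Where a neighbour points the other way, this extension runs antisense to the neighbour, and 2 polymerases on opposite strands can meet. Hyperosmotic stress, including high salt, is known to cause readthrough at many human genes, and tail-to-tail gene pairs are common in compact parts of the genome.

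The label "convergent" did not hold for each member. In 692 members (27.5%) the neighbour's 3′ end lay beyond the member's end, with a median gap of 339 nt. In 1501 members (59.6%) the 3′ ends overlapped, by a median of 2049 nt. In the remaining 325 members (12.9%) the neighbour's gene model ran over the whole member, so by gene models these are nested and not tail to tail. The neighbour's transcript in the table can still lie outside such a member, as at JMJD4 and GPATCH4. An overlap of 1 to 100 nt was found for 231 members, and it is the tallest class in the plot of distances between facing 3′ ends. The neighbour was itself in the table for 1928 members and itself a member for 1589, which gave 751 pairs in which each gene faces the other.

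**Figure D1:**
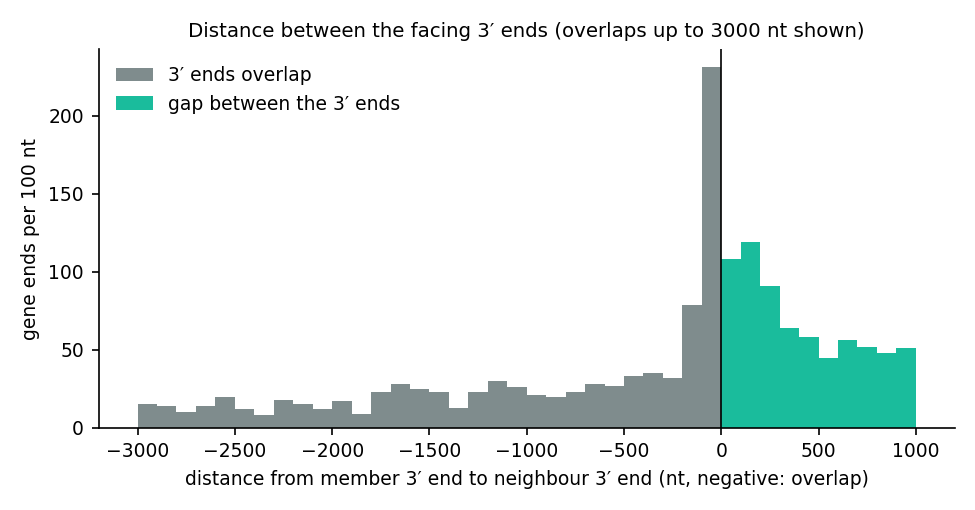
Distance in nt from the 3′ end of each member to the 3′ end of its opposite-strand neighbour, in bars of 100 nt; negative values are overlaps, and the 325 members inside a neighbour have no such distance and are not drawn. The tallest bar holds the 231 ends that overlap by 1 to 100 nt, and gaps are limited to under 1000 nt by the choice of window.

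Members were spread over the autosomes and X. Chromosome 17 held 8.10% of members and 6.14% of all matched transcripts, and chromosome 16 held 6.87% and 4.79%. Chromosome 13 held 0.874% of members and 1.54% of matched transcripts. Last exons of members were shorter, with a median of 1008.5 nt against 1562 nt for isolated ends, by which is meant the 8625 ends with no protein-coding gene in the window. The 1289 ends with a same-strand neighbour had a median of 860 nt. The window beyond the end had a median GC content of 48.5% in members, 45.3% at isolated ends and 50.6% at ends with a same-strand neighbour. AATAAA was found in the last 30 bases of 1213 of 2518 members (48.2%) and of 54.9% of isolated ends, ATTAAA without AATAAA in 12.9% and 13.2%, and neither in 38.9% and 32.0%. At ends with a same-strand neighbour these shares were 42.7%, 11.9% and 45.3%. Only the sense strand was searched, and these shares carry no test.

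The last 30 bases of the last exon of the transcript in the table are given here in transcript orientation, from the GRCh38 genome. For NAXE and PKLR these bases are not the end of the gene. The first match to AATAAA or ATTAAA is in capitals, with no capitals where neither was found. The first set is given because these 6 ends are among the 9 named ends that fell in KCl under every alternative in which they could be tested, and the 6 are not representative of the 9 in their signals.
TOE1: aaaaatcaacagaagcaagttatgaaaata
TIMM8B: aggaaaacatggcaaaaaaaaaaaaaaaaa
THAP7: ctccgtcttggggtgactcactgcaagtat
NAXE: aaacaatgaaaatggactgttagatgccaa
GPATCH4: taagaattgtgtaaaggacagcacaactca
JMJD4: ctcactccagattggcaaaaaaaaaaaaaa

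TOE1 lies at chr1:45343944-45343973 and NAXE at chr1:156594270-156594299, both on the plus strand. TIMM8B (chr11:112084800-112084829), THAP7 (chr22:20999104-20999133), GPATCH4 (chr1:156594301-156594330) and JMJD4 (chr1:227730425-227730454) are on the minus strand. These 6 ends had neither signal, while each of the 3 not printed, UROD, MCM7 and MAT2A, had AATAAA or ATTAAA. The TIMM8B and JMJD4 ends stop in a run of A that is in the genome itself.

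The second set is given because 5 of these ends rose at 18 h of imatinib, and LARP1 and ATP5F1E because they face FAXDC2 and TUBB1 on the opposite strand.
FAXDC2: aagcatgtaaAATAAActggtcttcatgaa
LARP1: gtataaaAATAAAcacttgaaaaggcaaaa
TUBB1: actaAATAAAttccttttcttgaagcctaa
ATP5F1E: ctcttcagaAATAAAgatcagaagactgca
TMOD1: gttcAATAAActatacagttgacccttgaa
PKLR: cacaaaccaagagccaaaaatgagtgtgtc
KEL: gctggcacttggcttccgcttgtctcttaa

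FAXDC2 (chr5:154818492-154818521, minus strand) faces LARP1 (chr5:154817576-154817605, plus strand) across a gap of 886 nt. TUBB1 (chr20:59026625-59026654, plus strand) and ATP5F1E (chr20:59025475-59025504, minus strand) overlap by 1180 nt. TMOD1 is at chr9:97601714-97601743 on the plus strand, and PKLR at chr1:155289839-155289868 and KEL at chr7:142941114-142941143, both on the minus strand. KEL had neither signal, nor did PKLR, whose gene runs 546 nt past the bases printed. The other 5 sequences of this set had AATAAA.

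Summed over 18 libraries, members held 77301 of 447434 readthrough reads (17.3%). Reads were concentrated: 207 members had 0 reads, the median was 10, 641 had at least 30, and 184 members held 50% of the reads. UROD had the most, with 2379, and the 10 members with most reads held 13.8%. The median was 11 reads for isolated ends and 9 for ends with a same-strand neighbour. The deposited notes do not state the strand setting of the counting step. By the study's methods a read over more than 1 gene was kept for the gene it covers most. It is therefore not known whether reads of a gene and of its antisense partner were kept apart where 3′ ends overlap. As a measurement that bears on this, 332 of the 751 facing pairs had at least 30 reads on a side, and in these a median of 86.4% of the pair's reads were on the side with more. In 21 of the 332 pairs the side with fewer had 0 reads.

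The 15 members with the highest mean level were UROD, EIF4A2, MCM7, TOE1, TAF1D, PNRC2, SRSF2, TIMM8B, THAP7, MAT2A, INTS4, HSP90AB1, JMJD4, APEX1 and YOD1. They include UROD, an enzyme of heme synthesis, the translation helicase EIF4A2, the replication helicase subunit MCM7, the splicing factor SRSF2, MAT2A, which makes S-adenosylmethionine, and INTS4, a subunit of the RNA-cleaving Integrator complex. UROD had 169, 163 and 247 RPM in CTRL (193 ± 47.0) and 370, 167 and 173 RPM in CTRLim (236 ± 116). ZSWIM5, which faces UROD across 823 nt, had 5 reads in the 18 libraries.

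The first question was whether any condition changed the weight of these ends among all readthrough. In KCl the summed member level was 3319, 3591 and 2999 RPM, against 6304, 5560 and 6296 RPM in CTRL. The groups did not overlap, and the mean was 1.83-fold lower in KCl (3303 ± 296 against 6053 ± 427 RPM, n = 3 each). Isolated ends were 1.34-fold lower and ends with a same-strand neighbour 1.25-fold lower in the same libraries. Among members, ends with a gap were 2.24-fold lower, overlapping ends 1.60-fold lower and ends inside a neighbour 2.33-fold lower. The member share of readthrough reads was 13.5, 13.4 and 13.95% in KCl (13.6 ± 0.301), and 16.2 to 18.9% in the other 15 libraries. CTRL had 18.9, 16.8 and 17.7% (17.8 ± 1.07). These differences in level and share were not tested, since the members were chosen with results known, and a summed level cannot tell fewer transcribing cells from less RNA per cell. With the 10 transcripts that have most reads left out of the table, an alternative chosen after seeing the data, shares stayed within 1 SD of these values except in IM 18h, where the share went from 17.0 to 17.7%.

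**Figure D2:**
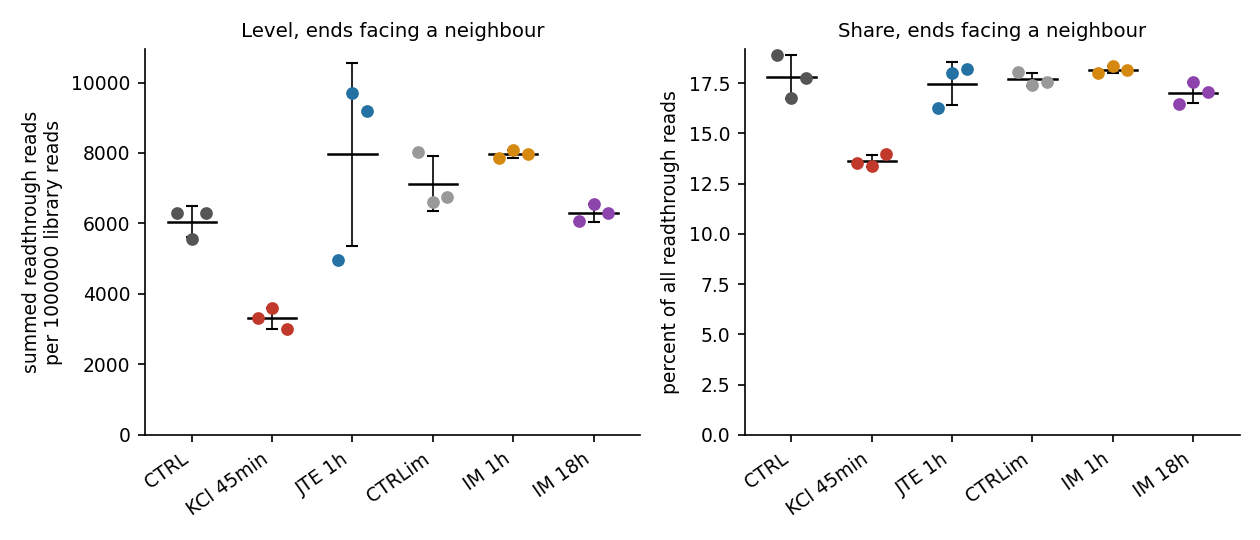
Left, readthrough reads summed over the 2518 members per 1000000 library reads in each library; right, their percent of all readthrough reads in the same library. Points are libraries, bars are group means and error bars SD (n = 3). The 3 KCl libraries lie between 13.4 and 13.95% and below the other 15, and JTE 1h replicate 1 is the low JTE point.

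Under the other treatments the share moved less. The summed level was 8018, 6605 and 6760 RPM in CTRLim, 7866, 8079 and 7963 RPM in IM 1h, and 6055, 6554 and 6298 RPM in IM 18h. The member share was 17.7 ± 0.340% in CTRLim, 18.2 ± 0.182% in IM 1h and 17.0 ± 0.532% in IM 18h. The IM 18h level was 1.26-fold lower than the IM 1h level without overlap of the libraries, and isolated ends were 1.19-fold lower. JTE 1h libraries had 4975, 9714 and 9204 RPM and shares of 16.2, 18.0 and 18.2%. Their mean was 1.32-fold above CTRL with replicate 1 (7964 ± 2601 RPM), and 9459 RPM without it, where the share was 18.1%.

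KCl against CTRL asks what osmotic stress did to each of these ends. Genes were tested with edgeR's quasi-likelihood test on all transcripts with at least 30 reads over the 6 libraries, with Benjamini-Hochberg adjustment over all of them and 0.05 as the threshold. The labels call the 3 libraries of a condition biological replicates, and the p-values measure the spread between them. Only 50 of the 2518 members had enough reads, and of these 20 fell and 1 rose. That is 42% of the members tested, where 25.1% of all 378 transcripts tested passed (4.23% higher, 20.9% lower). The median member change was -1.01 on the log2 scale, against -0.39 for all transcripts tested, -0.34 for isolated ends and -0.18 for ends with a same-strand neighbour. Of 16 members with a gap, 9 fell, with a median of -1.71. Of 32 overlapping members 9 fell and 1 rose, with a median of -0.74. The class was not uniform: the 16 with over 1000 nt of overlap had a median of 0.33 (2 fell, 1 rose), against -1.68 for 7 with 1 to 100 nt and -1.17 for 9 with more than that and up to 1000 nt, all 3 being groups of under 20 ends. Both tested members inside a neighbour's gene model, JMJD4 and GPATCH4, fell. Without the ends whose gene runs further, an alternative chosen after seeing the data, 18 of 44 members passed (40.9%) with a median of -1.01, where 25.5% of 318 transcripts passed with a median of -0.45. In that alternative 6 of 12 ends with a gap fell, and their median was -1.15 in place of -1.71.

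UROD went from 169, 163 and 247 RPM in CTRL to 21.9, 28.7 and 11.4 RPM in KCl, a log2 change of -3.31 (SE 0.552, edgeR adjusted p = 6.1e-06). MCM7 went from 99.8, 105 and 100.5 RPM to 26.8, 12.7 and 13.3 RPM (log2 -2.55, adjusted p = 0.00015). TIMM8B, a chaperone of mitochondrial import, went from 36.0, 41.4 and 46.4 RPM to 2.44, 9.56 and 1.89 RPM (log2 -3.42, adjusted p = 5.9e-05). In each of these 3 genes every KCl library lay below every CTRL library. TOE1, a 3′ exonuclease that matures small nuclear RNAs, had 83.2, 87.7 and 69.6 RPM in CTRL and 14.6, 25.5 and 3.79 RPM in KCl (log2 -2.70, adjusted p = 0.00020). THAP7, a chromatin-bound zinc finger protein whose end lies 71 nt from LZTR1, had 130, 80.4 and 42.5 RPM and then 7.31, 0 and 8.53 RPM (log2 -3.70, adjusted p = 4.9e-06). Its CTRL libraries spread widely, and the lowest still lay above the highest KCl library.

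JMJD4, an oxygenase that acts on a translation release factor, lies within the gene model of SNAP47. The SNAP47 transcript in the table starts outside JMJD4, at chr1:227735005. JMJD4 had 39, 28 and 9 reads in CTRL (108, 68.2 and 34.8 RPM) and 0, 0 and 1 read in KCl. With 1 KCl read the ratio was 131-fold, and the 95% counting interval ran from 22.9 to 5257 (edgeR adjusted p = 2.4e-08). Intervals of this kind cover counting error only. SNAP47, whose readthrough is counted from chr1:227781308 and so away from JMJD4, had 3 reads in CTRL and 1 in KCl. NAXE, which repairs damaged NADH, had 44.4, 19.5 and 23.2 RPM in CTRL and 0 reads in the 3 KCl libraries, so it was at least 17.3-fold lower with a floor of 3 reads over the group (adjusted p = 4.8e-06). GPATCH4, a nucleolar protein, faces NAXE with 1 nt between the ends of their table transcripts, although another NAXE model runs over GPATCH4. It had 41.6, 51.2 and 38.7 RPM in CTRL and 4.87, 0 and 4.74 RPM in KCl (log2 -3.45, adjusted p = 2.8e-05). Both sides of this pair therefore fell, and it was the only facing pair with both sides tested in this comparison.

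**Figure D3:**
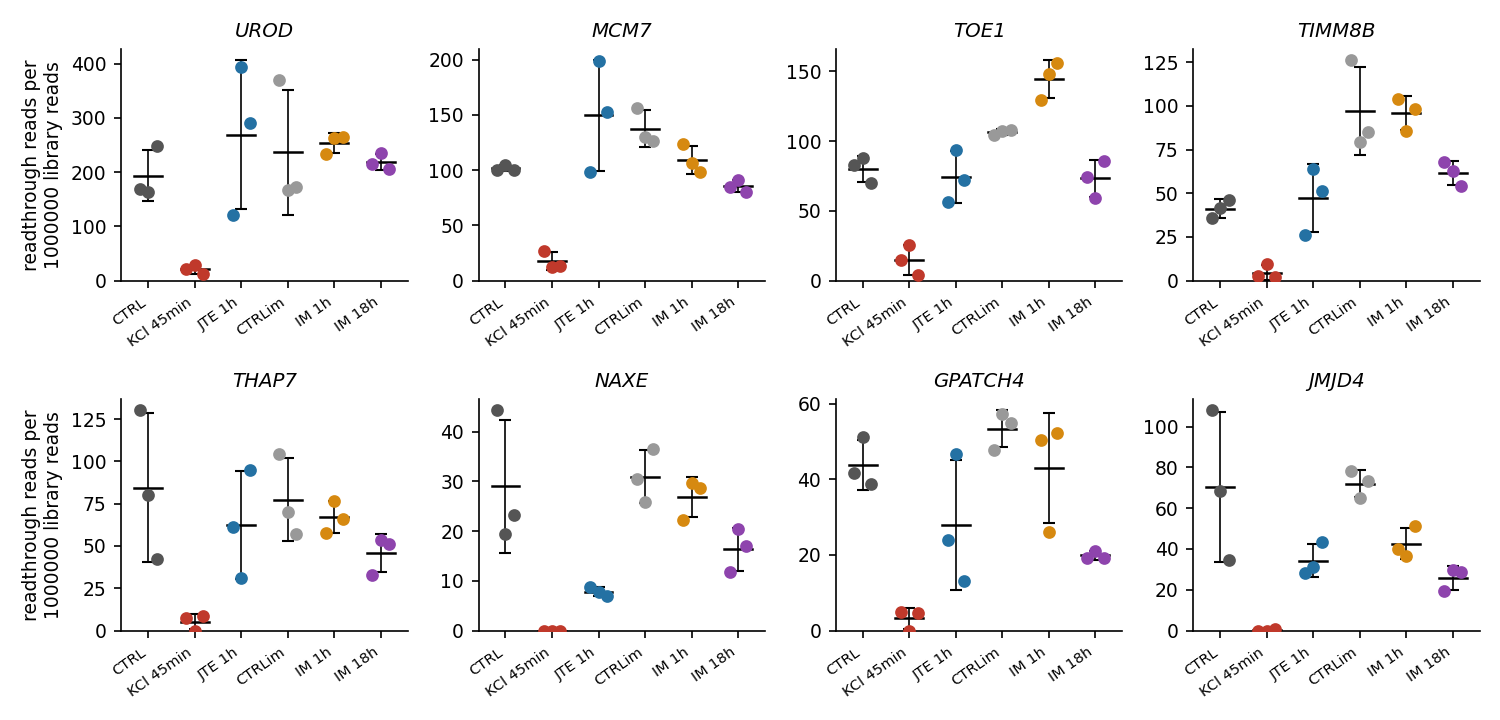
Readthrough reads per 1000000 library reads at 8 member ends in each of the 18 libraries, with group means and SD (n = 3). At each of the 8 ends the KCl points lie below the 3 CTRL points; NAXE has 0 reads in KCl, and the vertical scale differs between panels.

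MAT2A fell from 36.0, 68.2 and 58.0 RPM to 9.74, 9.56 and 14.2 RPM (log2 -2.17, adjusted p = 0.0015). These 8 ends and MAT2A passed the threshold under every alternative in which they could be tested. PNRC2, NELFE and PSMC5 passed too, with changes of -2.35, -2.45 and -1.46, but each lost its call under some alternatives. NDUFB9, a subunit of respiratory complex I, was the member that rose, with 5.54, 0 and 3.87 RPM in CTRL and 17.0, 28.7 and 11.4 RPM in KCl. Its ratio was 5.40-fold on 3 CTRL reads (95% counting interval 1.67 to 27.8, adjusted p = 0.027), and over its alternatives the adjusted p ran from 0.0099 to 0.24. Other ends with many reads did not pass. SRSF2 had 41.6, 63.3 and 34.8 RPM in CTRL and 34.1, 70.1 and 27.5 RPM in KCl, and HSP90AB1, a cytosolic chaperone, had 41.6, 34.1 and 61.9 RPM and then 31.7, 35.05 and 22.7 RPM.

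The KCl change differed with GC content: members with window GC at or above the member median had a median change of -1.36 (23 tested) and those below it -0.56 (27 tested), and isolated ends split at the same GC had -0.88 (52 tested) and -0.16 (152 tested). The part of GC content in the member result was not tested. The KCl count rested on few ends. Without CTRL replicate 1 it was 10 of 34 (29.4%, and 17.3% of all), without CTRL replicate 2 it was 11 of 30 (36.7%, and 17.05% of all), and without KCl replicate 3 it was 11 of 31 (35.5%, and 17.4% of all). TMM factors, which move the median of all transcripts from -0.39 to 0.05, left 13 lower and 1 higher, 28% of members where 19.8% of all passed, and a median member change of -0.56. DESeq2 called 22% of members and 12.4% of all. The difference between the medians of members and all was -0.61 with TMM factors and -0.62 with DESeq2, against -0.62 with library totals, and with a minimum of 10 reads it was -0.34 over 322 members.

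**Figure D4:**
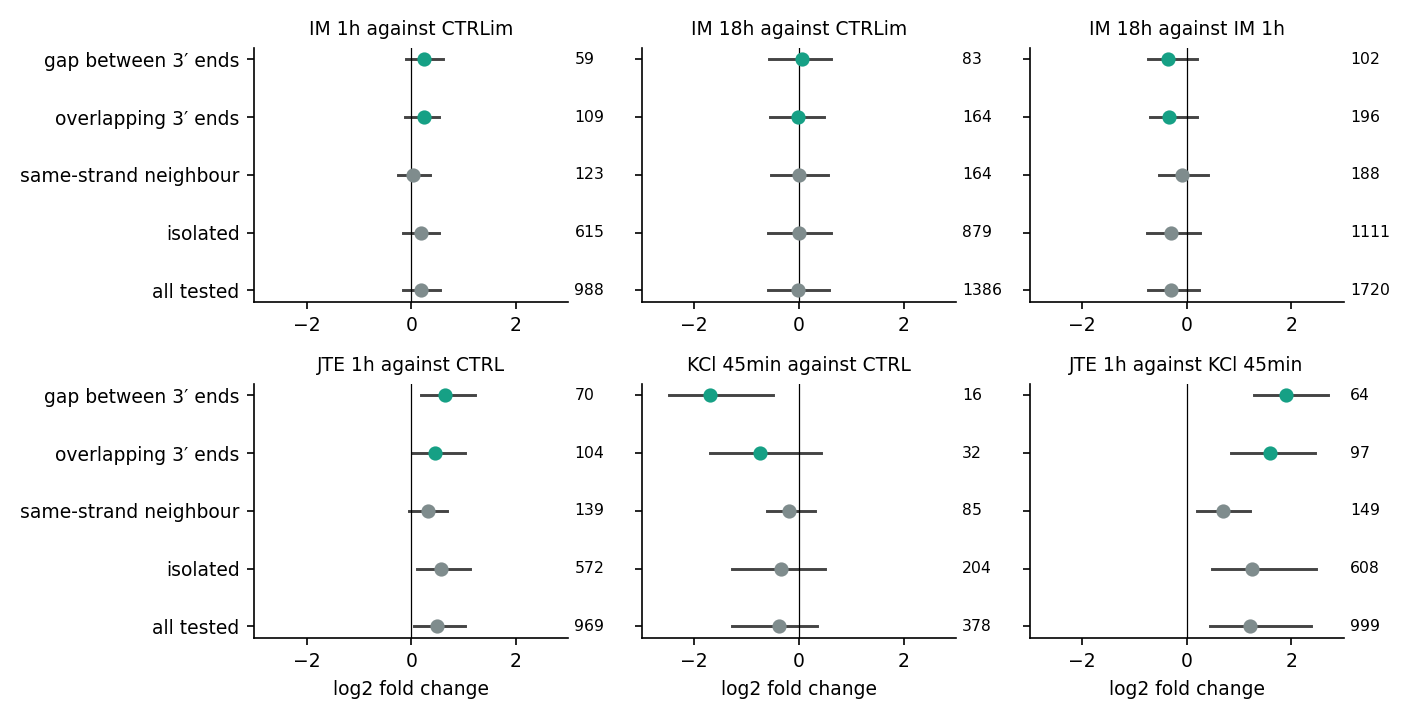
Median log2 fold change (points) and first to last quartile (lines) for member ends with a gap, member ends with overlap, ends with a same-strand neighbour, isolated ends and all transcripts tested, in 6 comparisons; the number tested stands at the right. In KCl against CTRL the 16 ends with a gap have a median of -1.71 and all 378 tested -0.39, while in IM 18h against CTRLim the classes lie close to 0.

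JTE 1h against CTRL asks what inhibiting CPSF73 does. No member passed among 189 tested with edgeR, where 0.103% of all transcripts passed (0.103% higher, 0% lower). At an unadjusted p under 0.05 there were 15 of the 189 members and 108 of all 969 transcripts, and DESeq2 called 0 members. The median change was 0.52 for members, 0.49 for all transcripts, 0.58 for isolated ends and 0.32 for ends with a same-strand neighbour, and 149 of the 189 lay above 0. TMM factors moved the median of all to 0.09 and that of members to 0.11. Without JTE 1h replicate 1, 7 members passed as higher and 1 as lower among 165: NOP56, MKRN2, AKNA, MAP4, HJURP, HMGA1 and HNRNPAB, and NAXE. That is 4.85% of members tested, where 8.21% of all transcripts passed. These 8 were named after their values were seen.

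MKRN2, a RING finger protein, had 15.2, 23.3 and 17.4 RPM in JTE 1h and 0, 2.44 and 3.87 RPM in CTRL, and with 2 CTRL reads its ratio was 9.47-fold (95% counting interval 2.45 to 80.9). NOP56, a core protein of box C/D small nucleolar ribonucleoproteins, had 32.6, 33.1 and 36.6 RPM in JTE 1h and 13.9, 7.31 and 3.87 RPM in CTRL. NAXE had 8.70, 7.78 and 6.97 RPM in JTE 1h against 44.4, 19.5 and 23.2 RPM in CTRL, below CTRL in each library. In these 3 genes the JTE libraries, replicate 1 included, did not overlap the CTRL libraries, yet with all 6 libraries the adjusted p did not pass.

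JTE 1h against KCl 45min sets both treatments of the same library set side by side, and it shares the KCl libraries with the comparison above. Of 174 members tested, 79 were higher in JTE and 1 was lower, which is 46.0% where 35.3% of all 999 transcripts passed (34.1% higher, 1.2% lower). The median change was 1.75 for members, 1.21 for all, 1.26 for isolated ends and 0.69 for ends with a same-strand neighbour. By geometry, 31 of 64 ends with a gap were higher, as were 39 of 97 overlapping ends and 9 of 13 ends inside a neighbour. The split depended on scaling: TMM factors moved the median of all from 1.21 to 0.08 and gave 22 higher and 6 lower. The excess of calls among members was then gone, with 16.1% of members and 16.8% of all transcripts called, and with DESeq2 it was 6.90% and 6.71%. The difference between the medians of members and all was 0.51 with TMM factors and 0.54 with DESeq2, against 0.54 with library totals. The count was 16 of 55 without JTE 1h replicate 3 (29.1%, and 19.1% of all), 37 of 112 without JTE 1h replicate 2 (33.04% and 23.8%), 36 of 139 without KCl replicate 3 (25.9% and 22.2%) and 104 of 151 without JTE 1h replicate 1 (68.9% and 54.5%), and DESeq2 gave 12. Without the ends whose gene runs further it was 73 of 156 (46.8%), where 36.5% of 874 transcripts passed.

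UROD had 122, 395 and 291 RPM in JTE 1h against 21.9, 28.7 and 11.4 RPM in KCl (log2 3.79, SE 0.602, edgeR adjusted p = 6.5e-08). ROMO1, a mitochondrial membrane protein, had 23.9, 33.1 and 34.9 RPM in JTE 1h and 0 reads in KCl, which is at least 19.0-fold higher (adjusted p = 3.2e-07). GAPDH, the glycolytic enzyme, had 52.2, 44.7 and 58.4 RPM and then 4.87, 0 and 0.947 RPM, a ratio of 31.9 on 3 KCl reads (95% counting interval 10.6 to 157, adjusted p = 2.3e-06). JTE and KCl libraries did not overlap at these ends. PSMB4, a proteasome subunit, had 21.8, 42.8 and 33.99 RPM and then 0, 0 and 0.947 RPM (ratio 59.6 on 1 KCl read, 95% counting interval 10.4 to 2386, adjusted p = 3.0e-06). JMJD4 had 28.3, 31.1 and 43.6 RPM in JTE 1h, a ratio of 66.3 on its single KCl read (11.6 to 2651). NDUFB9 was the member that was lower in JTE, with 2.18, 0 and 1.74 RPM against 17.0, 28.7 and 11.4 RPM in KCl, a ratio of 11.1 on 3 JTE reads (3.44 to 57.2, adjusted p = 0.0012). Each of these 6 ends passed under every alternative in which it could be tested.

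Of 6 facing pairs with both sides tested in JTE against KCl, 6 had both sides above 0 and 3 had both sides called: DGCR8 with TRMT2A, NOP56 with IDH3B, and DHX30 with MAP4. DGCR8, the RNA-binding partner of Drosha in microRNA processing, had 30.5, 44.7 and 46.2 RPM in JTE 1h and 17.0, 9.56 and 1.89 RPM in KCl (log2 2.28, adjusted p = 0.0059). TRMT2A, a tRNA methyltransferase whose end overlaps that of DGCR8 by 3 nt, had 6.53, 13.6 and 29.6 RPM and then 2.44, 3.19 and 2.84 RPM (log2 2.59, adjusted p = 0.0073). NOP56 and IDH3B end 1 nt apart and changed by 3.00 and 2.99. The pairs other than DGCR8 with TRMT2A were named after their values were seen, and over the alternatives the adjusted p of DGCR8 reached 0.21 and that of TRMT2A 0.38.

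IM 1h against CTRLim asks for early effects of imatinib. Of 185 members tested, 1 rose and 0 fell, which is 0.541% where 1.52% of all 988 transcripts passed (0.202% higher, 1.32% lower). The median was 0.24 for members and 0.19 for all, and TMM factors moved them to 0.07 and 0.00. The member was NELFE, a subunit of the factor that holds polymerase II paused near promoters, whose end lies next to the CFB gene with a gap of 0 nt. NELFE had 40.1, 38.4 and 42.4 RPM in IM 1h and 30.5, 13.0 and 12.2 RPM in CTRLim (log2 1.33, SE 0.354, adjusted p = 0.013). All 3 IM 1h libraries lay above CTRLim, but the call was kept in 5 of 13 alternatives, and the adjusted p ran from 0.0012 to 0.58. CFB had 0 reads in IM 1h and CTRLim. With TMM factors the call was JMJD4, lower (-0.89, adjusted p = 0.022, with a range of 0.022 to 0.76 over its alternatives). Leaving out CTRLim replicate 1 gave 3 members, UROD, NELFE and SHTN1 (1.74%, where 2.43% of all passed). Leaving out IM 1h replicate 3 gave NELFE, higher, and RASSF5, lower (1.68%, where 2.05% of all passed). Leaving out CTRLim replicate 2, CTRLim replicate 3 or IM 1h replicate 1 gave 0. With mapped reads as size the calls were NELFE and POLR2B, and JMJD4, UROD, SHTN1, RASSF5 and POLR2B were picked out for this comparison after their values were seen. At an unadjusted p under 0.05 there were 24 of the 185 members and 131 of all 988 transcripts, and DESeq2 called 0 members.

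IM 18h against CTRLim asks for the late effects, when imatinib is known to drive K562 cells toward the erythroid lineage. Of 272 members tested 12 rose and 17 fell, which is 10.7% where 14.1% of all 1386 transcripts passed (5.19% higher, 8.95% lower). The median was 0.02 for members and -0.01 for all, and TMM factors moved that of all to 0.09. With TMM factors 17 were higher and 11 lower (10.3%, where 14.6% of all passed). The count was 15 of 236 without CTRLim replicate 2 (6.36%, and 9.44% of all), 18 of 239 without CTRLim replicate 3 (7.53% and 9.65%) and 19 of 162 without IM 18h replicate 2 (11.7% and 15.3%), and DESeq2 called 8 of 272 (2.94% and 5.70%).

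The 5 ends that rose with the smallest adjusted p were FAXDC2, TUBB1, KEL, PKLR and TMOD1. FAXDC2, a predicted fatty acid hydroxylase, had 0, 1.85 and 0 RPM in CTRLim and 40.4, 29.0 and 29.6 RPM in IM 18h, a ratio of 40.7 on 1 CTRLim read (95% counting interval 7.16 to 1621, edgeR adjusted p = 1.4e-06). TUBB1, the β-tubulin of megakaryocytes and platelets, had 0, 1.85 and 0 RPM and then 36.2, 21.9 and 22.97 RPM, a ratio of 32.9 on 1 read (5.76 to 1314, adjusted p = 9.1e-06). KEL, the Kell blood group protein, had 0 reads in CTRLim and 10.6, 8.61 and 14.8 RPM in IM 18h, at least 4.84-fold higher (adjusted p = 0.00071). At each of these ends the IM 18h libraries lay above every CTRLim library. PKLR, the pyruvate kinase of red cells and liver, had 0, 3.70 and 0 RPM and then 14.9, 20.4 and 15.6 RPM (ratio 10.8 on 2 reads, 2.86 to 91.1, adjusted p = 0.00071). TMOD1, which caps actin filaments of the red cell skeleton, had 8.70, 0 and 0 RPM and then 13.8, 21.9 and 14.8 RPM, with the same ratio, as it had the same read totals, and adjusted p = 0.0013. All but KEL passed in each alternative in which they were tested, and KEL missed with DESeq2.

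Other ends fell between CTRLim and IM 18h. JMJD4 went from 78.3, 64.8 and 73.1 RPM in CTRLim to 19.1, 29.7 and 28.9 RPM (log2 -1.43, SE 0.280, adjusted p = 0.00025). GPATCH4 went from 47.9, 57.4 and 54.8 RPM to 19.1, 21.1 and 19.3 RPM (log2 -1.44, adjusted p = 0.00065). RASSF5, a Ras-binding protein of leukocytes, went from 30.5, 24.1 and 26.4 RPM to 4.26, 8.61 and 7.41 RPM (log2 -1.89, adjusted p = 0.00073). At these 3 ends each IM 18h library lay below each CTRLim library, and they passed under every alternative. C1QBP, a mitochondrial matrix protein, fell by 1.98 on the log2 scale (adjusted p = 0.0042) and TPI1, a glycolytic enzyme, by 1.35 (adjusted p = 0.0074). The TPI1 call was lost without CTRLim replicate 3 and with DESeq2.

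IM 18h against IM 1h asks how early and late treatment differ, and it shares the IM 18h libraries with the comparison above. Of 331 members tested 9 were higher at 18 h and 45 lower, which is 16.3% where 18.3% of all 1720 transcripts passed (4.19% higher, 14.1% lower). The median was -0.35 for members, -0.30 for all, -0.29 for isolated ends and -0.09 for ends with a same-strand neighbour. TMM factors moved the median of all to -0.01 and gave 16 higher and 12 lower (8.46%, where 12.2% of all passed). The predominance of lower ends therefore depended on scaling by library totals. The count was 34 of 285 without IM 1h replicate 1 (11.9%, and 14.3% of all), 27 of 289 without replicate 2 (9.34% and 12.03%) and 26 of 281 without replicate 3 (9.25% and 12%), and DESeq2 called 6 of 331, each of them higher (1.81% and 3.66%).

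TUBB1 was higher at 18 h than at 1 h, where it had 1.49, 5.23 and 3.74 RPM (log2 2.90, adjusted p = 6.5e-07). FAXDC2 had 7.43, 12.2 and 9.97 RPM at 1 h (log2 1.72, adjusted p = 9.9e-05), between CTRLim and IM 18h. BMP2K, a kinase of clathrin-coated vesicles, had 8.91, 8.72 and 7.47 RPM at 1 h and 29.8, 31.3 and 21.5 RPM at 18 h (log2 1.70, adjusted p = 0.00039). These calls held under every alternative. In CTRLim BMP2K had 16.1 ± 7.12 RPM, and neither imatinib time passed against CTRLim. The log2 changes were -0.85 at 1 h and 0.84 at 18 h (edgeR adjusted p = 0.44 and 0.17). EIF4A2 had 263, 298 and 288 RPM at 1 h and 177, 175 and 148 RPM at 18 h (log2 -0.77, adjusted p = 3.9e-07), and TOE1 had 129, 148 and 156 RPM and then 74.5, 59.5 and 86.0 RPM (log2 -0.98, adjusted p = 6.2e-07). MAT2A had 66.9, 83.7 and 78.5 RPM and then 41.5, 36.0 and 39.3 RPM (log2 -0.97, adjusted p = 0.00010). For EIF4A2, TOE1 and MAT2A the 18 h libraries lay below each 1 h library, while with DESeq2 and with all 18 libraries in the fit these 3 calls were lost.

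In facing pairs both genes have counts of their own, with the limit given above that reads of the 2 strands may not have been kept apart where the ends overlap. Among the pairs with most reads on the side that has fewer were GPATCH4 with NAXE, HDAC1 with MARCKSL1, LARP1 with FAXDC2, TIMM8B with NKAPD1, and DGCR8 with TRMT2A. LARP1, an RNA-binding regulator of ribosomal protein mRNAs, had 30.5, 11.1 and 20.3 RPM in CTRLim and 26.6, 28.2 and 19.3 RPM in IM 18h, which overlap, while FAXDC2 on the other strand rose. HDAC1, a histone deacetylase, had 164 reads and MARCKSL1, an actin-binding protein, had 151, and no call was made on either end except HDAC1 in JTE against KCl (adjusted p = 0.045, lost in 7 of 11 alternatives). NKAPD1 had 140 reads against 681 of TIMM8B, whose end it overlaps by 351 nt.

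In 1 pair both sides were called in opposite directions. ATP5F1E, a subunit of the mitochondrial ATP synthase, had 34.8, 20.4 and 52.8 RPM in CTRLim, 28.2, 40.1 and 41.1 RPM in IM 1h and 20.2, 9.39 and 20.7 RPM in IM 18h. TUBB1, on the opposite strand with 1180 nt of overlap, rose over the same conditions as given above. ATP5F1E fell by 1.10 against CTRLim (adjusted p = 0.042, the 20.7 RPM library lying above the lowest CTRLim library) and by 1.13 against IM 1h (adjusted p = 0.0036). Over the alternatives its adjusted p ran from 0.010 to 0.48 and from 0.0015 to 0.36. Of 17 pairs with both sides tested in IM 18h against CTRLim it was the only pair with both sides called, and it was picked out after its values were seen.

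**Figure D5:**
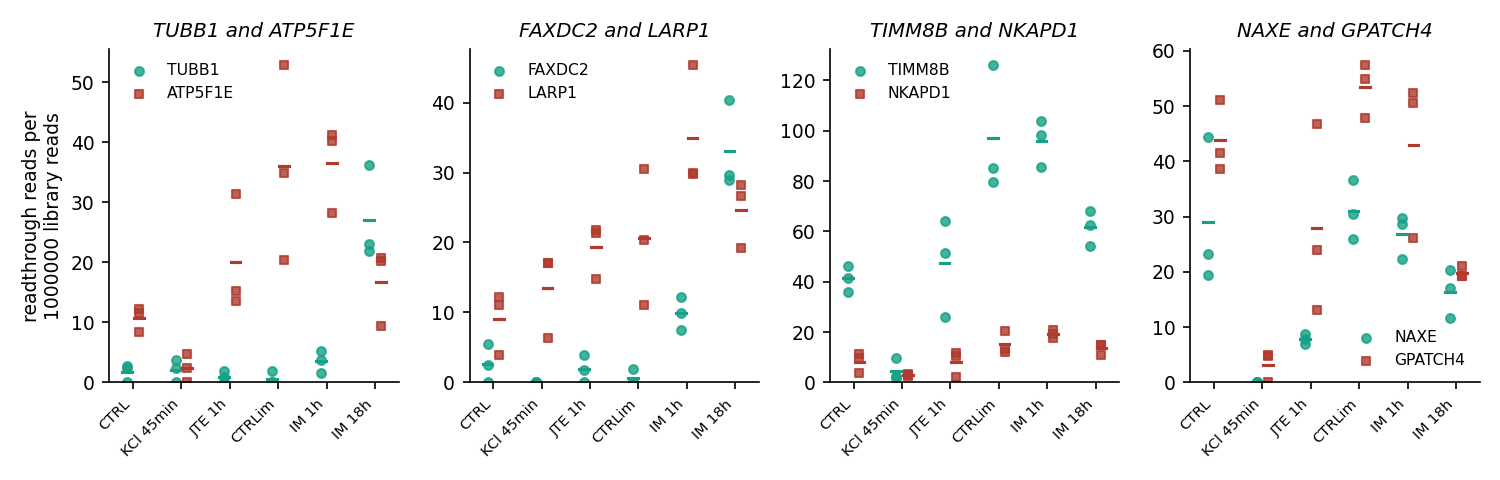
Readthrough reads per 1000000 library reads on both sides of 4 facing pairs in each library; points are libraries and short bars group means (n = 3). In IM 18h TUBB1 lies at 21.9 to 36.2 and ATP5F1E at 9.39 to 20.7, FAXDC2 is high in IM 18h beside LARP1, and NAXE and GPATCH4 are both low in KCl.

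The 10 gene lists held 526 genes, and few of their genes are members with enough reads. The erythroid and heme list had 8 members. Of these KEL rose at 18 h against CTRLim and was higher at 18 h than at 1 h, and UROD did not pass in either comparison. UROD fell in KCl and was higher in JTE than in KCl, with the values given above. No member of this list was called in IM 1h against CTRLim or in JTE against CTRL.

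The DNA replication and cell cycle list had 18 members. In KCl its 1 tested member, MCM7, fell, and in IM 18h against IM 1h 2 of 7 fell, the cyclin-dependent kinase CDK4 (adjusted p = 0.0035, lost in 2 of 13 alternatives) and the clamp loader subunit RFC5 (log2 -1.47, lost in 8 of 13). In JTE against KCl 2 of 6 were higher, MCM7 and the mitotic kinase AURKA, the latter lost in 4 of 12 alternatives. Over all transcripts tested, 20.9% were lower in KCl, 14.1% lower in IM 18h against IM 1h and 34.1% higher in JTE against KCl. MCM7 also passed as lower in IM 18h against CTRLim, with -0.67 and adjusted p = 0.039, but in 2 of 13 alternatives only. The median of the list in IM 18h against IM 1h was -0.52 beside -0.30 for all transcripts.

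Of 16 members among RNA polymerase and general transcription factor subunits, 3 were tested with imatinib. POLR2B, the second-largest subunit of polymerase II, had 8.70, 0 and 2.03 RPM in CTRLim and 18.1, 9.39 and 11.1 RPM in IM 18h, a ratio of 5.19 on 3 CTRLim reads (95% counting interval 1.66 to 26.1, adjusted p = 0.023, 0.0069 to 0.24 over the alternatives). NELFE fell in KCl, with 55.4, 24.4 and 19.3 RPM in CTRL and 12.2, 3.19 and 3.79 RPM in KCl (adjusted p = 0.0029). Its call in KCl was lost without KCl replicate 3 and with DESeq2. In IM 18h against IM 1h NELFE was lower, with a log2 change of -0.70 (adjusted p = 0.045), a call kept in 1 of 13 alternatives.

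The list of mRNA 3′ end processing genes had 11 members, of which 2 or 3 were tested in most comparisons. INTS4 was lower in IM 18h than in IM 1h (25.5, 52.4 and 42.2 against 69.8, 57.6 and 57.3 RPM, adjusted p = 0.040), a call kept in 2 of 13 alternatives. CPSF4, a zinc finger subunit of the cleavage complex, was higher in JTE than in KCl, with 6.53, 23.3 and 15.7 against 4.87, 3.19 and 1.89 RPM (adjusted p = 0.024, lost in 5 of 11 alternatives). No other member of this list was called.

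Of 17 members among ribosome biogenesis genes, the nucleolar GTPases GNL2 and GNL3 fell in IM 18h against IM 1h (2 of 5 tested, list median -1.09), GNL2 in IM 18h against CTRLim (1 of 3), and NOP56 was higher in JTE than in KCl (1 of 6). GNL3 had 32.7, 34.9 and 28.7 RPM at 1 h and 14.9, 11.0 and 18.5 RPM at 18 h (adjusted p = 0.0074, lost in 4 of 13 alternatives). The GNL2 call against IM 1h was lost in 9 of 12 alternatives, and that of NOP56 in 2 of 13. The GNL2 call against CTRLim (adjusted p = 0.048) was lost in each of its 7 alternatives. Among 10 proteasome and ubiquitin ligase members PSMC5 fell in KCl (1 of 3 tested, adjusted p = 0.034, lost in 9 of 13 alternatives) and in IM 18h against IM 1h (1 of 4, kept in 1 of 13 alternatives), and PSMB4 was higher in JTE than in KCl (1 of 4). Beside these counts, the share of all transcripts called lower was 14.1% in IM 18h against IM 1h, 8.95% in IM 18h against CTRLim and 20.9% in KCl. Of all transcripts, 34.1% were higher in JTE against KCl.

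The remaining lists gave few calls. Of 6 aminoacyl-tRNA synthetase members YARS1 fell in IM 18h against IM 1h (1 of 3, lost in 6 of 13 alternatives), of 22 DNA repair members the abasic-site nuclease APEX1 was higher in JTE than in KCl (1 of 1), and of 6 members of the integrated stress and unfolded protein response list the chaperone HSPA5 was higher in JTE than in KCl (1 of 2, lost in 6 of 11 alternatives). Of all transcripts tested, 14.1% were lower in IM 18h against IM 1h and 34.1% higher in JTE against KCl. APEX1 had 4.35, 64.2 and 34.9 RPM in JTE 1h and 0, 0 and 1.89 RPM in KCl, a ratio of 31.5 on 2 KCl reads (95% counting interval 8.41 to 265, adjusted p = 1.0e-05), and its low JTE library was replicate 1. None of the 5 members on the list of Bcr-Abl1, JAK-STAT and MYC response genes had enough reads to be tested.

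The counts do not separate how much a gene is transcribed from how often its transcripts are read through, so a change here can be of either kind, and this was not tested. Only 50 to 331 of the 2518 members had enough reads in a comparison, and the rest carry no result. There are 3 biological replicates per condition and 1 cell line. JTE 1h and KCl 45min were given at 1 dose and 1 time.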

How the data were processed

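The deposited file holds 1 count per transcript and library. Per the labels and the study's methods, the authors trimmed reads with cutadapt, mapped them with minimap2 to GRCh38.p14, removed polyadenylated and non-unique reads, collapsed duplicates by molecular identifier, and counted reads that end over 100 nt past the last exon, taking for each gene the transcript reaching furthest 3′, and for reads over several genes the gene covered most. Library totals come from the study's supplement.

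Members were found with GENCODE 44. Counts were fitted with edgeR 4.0.16 (quasi-likelihood, R 4.3.3) on transcripts with at least 30 reads over the 6 libraries, library totals as size, Benjamini-Hochberg over all tested. The procedure was also run on simulated counts with a single fixed dispersion, which cannot show how it behaves at the spread of these libraries. Ratios on 0 to 3 reads use a floor of 3 reads or an exact binomial interval. Tables were made in Python 3.11.15 with numpy 2.4.6 and pandas 2.3.3, intervals with scipy 1.17.1, and figures drawn with matplotlib 3.10.9. Depth of 229855 to 1349556 reads left 50 to 331 members testable.

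Named genes were the 15 members with the highest mean level; the 5 higher and 5 lower with the smallest adjusted p per comparison among those called without overlap; the 6 facing pairs with most reads on the weaker side; and called members of the 10 lists. Members and lists were chosen with earlier results of these data known. Residuals of libraries with the same replicate number correlated in JTE 1h against KCl 45min (r of 0.272, 0.228 and 0.133 across transcripts). A replicate block gave 90 calls there in place of 80 (51.7% of members, and 40.3% of all). Alternatives were TMM factors, mapped reads as size, minimums of 10 and 1 reads, DESeq2 1.42.0, the replicate block, a fit of all 18 libraries, each library left out, and other member definitions.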

Additional observations from a re-analysis of the deposited data

Results flagged for a closer look

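Between 1 h and 18 h of imatinib, 10 named ends differed by a direct edgeR test of IM 18h against IM 1h, and they are given because the difference between the 2 times was tested itself. Higher at 18 h on the log2 scale were TUBB1 (2.90), KEL (4.22, on 1 read at 1 h, a ratio of 23.6 with a 95% counting interval of 3.997 to 953), FAXDC2 (1.72), BMP2K (1.70) and TMOD1 (1.93). Lower were EIF4A2 (-0.77), TOE1 (-0.98), MAT2A (-0.97), CDC42SE1 (-1.35) and GPATCH4 (-1.14). With DESeq2 the 5 lower ends no longer passed. With all 18 libraries in the fit EIF4A2, TOE1, MAT2A and GPATCH4 did not pass either, and GPATCH4 was also lost without IM 1h replicate 3. The 5 higher ends passed in each alternative in which they were tested. The cause was not tested.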

How the results depend on the processing

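Settings were the size factors, the read minimum, the tool, a replicate block, the libraries in the fit and the definition of a member. For named genes that had passed in a comparison, 800 values under the alternatives still passed, 272 no longer passed and 0 changed sign. Named genes that had not passed in a comparison are not in these counts. Some of them passed under an alternative, as UROD and RASSF5 did in IM 1h against CTRLim. The count of members called moved by over 1.5 times in 40 cases and stayed within that in 62. Where a library is left out, the arm left with 2 libraries is assumed to vary like the others.

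With TMM factors the median member change was 0.067 in IM 1h against CTRLim and -0.56 in KCl against CTRL. It was -0.061 in IM 18h against IM 1h (28 called, 8.46%, and 12.2% of all). In JTE against KCl it was 0.59 (28 called, 16.1%, and 16.8% of all). With mapped reads as size 2 members were called in IM 1h against CTRLim (1.08%, and 1.62% of all), and the median in IM 18h against IM 1h was -0.27. The summed level was then 5286 RPM in CTRL, 5921 in CTRLim, 3004 in KCl, 6747 in IM 1h and 5641 in IM 18h. With a minimum of 10 reads 58 of 322 members were called in KCl against CTRL (18.0%, and 13.6% of all, median -0.75). In JTE against KCl it was 151 of 662 (22.8%, and 17.4% of all), and the median in IM 18h against IM 1h was -0.30. With a minimum of 1 read 0 were called in IM 1h against CTRLim, 16 in IM 18h against CTRLim (median 0.17) and 27 in IM 18h against IM 1h (median -0.19), and the KCl median was -0.59.

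With DESeq2 0 members were called in IM 1h against CTRLim (0.810% of all, median 0.072). It called 8 in IM 18h against CTRLim (2.94%, and 5.70% of all, median 0.16). In IM 18h against IM 1h it called 6 (1.81%, and 3.66% of all, median -0.063). In KCl against CTRL it called 11 (22%, and 12.4% of all, median -0.60), and in JTE against KCl 12 (6.90%, and 6.71% of all, median 0.88). With a replicate block 0 were called in IM 1h against CTRLim (1.01% of all) and 0 in JTE against CTRL (0.413% of all). In KCl against CTRL 22 were called (44%, and 26.5% of all), and the median in IM 18h against IM 1h was -0.37. Residuals of the same replicate number had r of 0.301, 0.0367 and 0.225 in KCl against CTRL and of 0.252, -0.0113 and 0.238 in JTE against CTRL. With all 18 libraries in the fit 0 were called in IM 1h against CTRLim (0.506% of all) and 14 in IM 18h against CTRLim (5.15%, and 8.15% of all). In IM 18h against IM 1h 12 were called (3.63%, and 6.51% of all), and in JTE against CTRL 4 (2.12%, and 3.10% of all).

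With libraries left out 1 at a time, members called ran from 0 to 3 in IM 1h against CTRLim, 15 to 27 in IM 18h against CTRLim, 26 to 46 in IM 18h against IM 1h, 0 to 8 in JTE against CTRL, 10 to 15 in KCl against CTRL and 16 to 104 in JTE against KCl. Medians ran from -0.13 to 0.082 in IM 18h against CTRLim, -0.41 to -0.28 in IM 18h against IM 1h, -1.56 to -0.76 in KCl against CTRL and 1.12 to 2.09 in JTE against KCl.

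With only ends that have a gap, 8 of 83 were called in IM 18h against CTRLim (9.64%, and 14.1% of all). In IM 18h against IM 1h it was 16 of 102 (15.7%, and 18.3% of all). In KCl against CTRL it was 9 of 16 (56.25%, and 25.1% of all, median -1.71), and in JTE against KCl 31 of 64 (48.4%, and 35.3% of all). The summed level of ends with a gap was 2083 RPM in CTRL, 2278 in CTRLim, 928 in KCl, 2857 in JTE, 2524 in IM 1h and 2029.9 in IM 18h. Without members inside a neighbour the level was 5486 RPM in CTRL, 7240.3 in IM 1h and 5754 in IM 18h. With the left-out symbols put back it was 6918 RPM in CTRL, 8061 in CTRLim, 3745 in KCl, 8976 in IM 1h and 6894 in IM 18h, and the median in IM 18h against IM 1h was -0.41. In IM 1h it was 7715 RPM without UROD, 7686 without EIF4A2 and 7859.7 without MCM7.

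Alternatives for the member share of readthrough reads were chosen after seeing the data. Among transcripts under 500 reads it was 18.9% in CTRL, 18.6% in CTRLim, 15.1% in KCl, 18.7% in IM 1h and 18.3% in IM 18h. Without members inside a neighbour it was 16.1% in CTRL, 16.1% in CTRLim, 12.6% in KCl, 16.04% in JTE, 16.5% in IM 1h and 15.5% in IM 18h. With the left-out symbols put back it was 20.4% in CTRL, 20.002% in CTRLim, 15.4% in KCl, 19.9% in JTE, 20.5% in IM 1h and 18.6% in IM 18h. Without the 10 transcripts with most reads it was 17.7% in IM 18h. Members whose annotated gene runs over 100 nt past the transcript in the table were also left out after seeing the data. The others held 16.2% in CTRL, 16.002% in CTRLim, 12.4% in KCl, 15.9% in JTE, 16.5% in IM 1h and 15.4% in IM 18h, and their level was 5521 RPM in CTRL, 7228 in IM 1h and 5697 in IM 18h. Among them 1 of 165 was called in IM 1h against CTRLim (0.606%, and 1.73% of all) and 26 of 242 in IM 18h against CTRLim (10.7%, and 14.6% of all). In IM 18h against IM 1h it was 50 of 299 (16.7%, and 18.3% of all), and in JTE against CTRL 0 of 171 (0.117% of all). In KCl against CTRL it was 18 of 44 (40.9%, and 25.5% of all), and in JTE against KCl 73 of 156 (46.8%, and 36.5% of all).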
